A study of Homo sapiens with 16 samples.

Results

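The genes described here are 9 well-known transcriptional targets of the tumor suppressor p53, namely CDKN1A, MDM2, GDF15, BTG2, TP53I3, SESN1, SESN2, SESN3 and ZMAT3. They were picked by name, with earlier results of these data known, and all 9 were found among the 20356 gene rows of the count table. Sequencing of RNA covered PC3, a human prostate cancer line in long use that carries no working p53, to ask how the RNA helicase DDX4, a germline protein, bears on the tumor-related properties of these cells. The 4 groups of 4 libraries each were DDX4-null PC3 cells grown as monolayers, control (DDX4 wild-type) PC3 cells grown as monolayers, xenograft tumors of DDX4-null PC3 cells and xenograft tumors of control PC3 cells. The labels do not give how the DDX4 allele was disrupted, whether a line came from 1 clone, the host, or whether libraries came from separate cultures and animals, so the p-values cover library-to-library spread, possibly technical.

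p53 is a transcription factor that accumulates after DNA damage and other stress and switches on genes that halt the cell cycle, trigger apoptosis, limit growth signaling or restrain p53 itself. Many of these genes also have promoter or enhancer elements for other factors, so that they stay transcribed in cells without p53. The relatives p63 and p73 bind the same DNA element, ATF4 drives GDF15 and SESN2 in the response to amino acid shortage and endoplasmic reticulum stress, and FOXO factors drive SESN1 and SESN3.

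Library totals lay between 16151344 and 21763745 counts in DDX4-null cells, 14368124 and 18836982 in control cells, 12204254 and 17961710 in DDX4-null tumors and 13480294 and 25443952 in control tumors. DDX4 itself had 0 to 5 counts per library, summing to 7 counts in DDX4-null against 10 in control cells and 11 in DDX4-null against 13 in control tumors, so its RNA could not check the labels (two-sided exact permutation test, p = 0.543 in cells and 0.971 in tumors, smallest possible p 0.0286). The 4 epithelial keratin and EPCAM markers summed to 1436 to 1720 CPM (counts scaled to a common library size) in DDX4-null cells, 843 to 971 in control cells, 1148 to 1587 in DDX4-null tumors and 1177 to 1340 in control tumors. The 7 fibroblast markers, such as COL1A1, summed to 1670 to 10754 CPM in DDX4-null tumors and 1380 to 1868 CPM in control tumors, against 45.6 to 57.8 CPM in DDX4-null cells, where DCN was at 0, and 24 to 31.3 CPM in control cells. The highest of these sums, 10754 CPM, came from DDX4-null tumor 1, while the other 3 DDX4-null tumors had 1670 to 1915 CPM. Fibroblast marker RNA was thus far higher in tumors than in cells, and in bulk RNA fewer cells of a type and less RNA per cell cannot be told apart.

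TP63, which encodes p63, had 0.540 ± 0.226 CPM in DDX4-null and 2.41 ± 0.195 CPM in control cells, and 1.01 ± 0.273 CPM in DDX4-null and 0.832 ± 0.279 CPM in control tumors (SD, n = 4 each). It fell in DDX4-null cells (log2 change -2.17 ± 0.26, SE, adjusted p = 4.81e-07, edgeR quasi-likelihood test with Benjamini-Hochberg adjustment, as for all adjusted p-values below unless another tool is named). TP73, which encodes p73, was too low to pass the filter on low counts in the genotype fits, with 49 counts in DDX4-null against 5 in control cells and 12 in DDX4-null against 41 in control tumors. MDM4, an inhibitor of p53 related to MDM2, fell in DDX4-null cells to 47.9 ± 3.84 CPM, against 73.2 ± 7.24 CPM in control cells (log2 change -0.61 ± 0.10, adjusted p = 3.47e-05). Its level was 92.5 ± 9.12 CPM in DDX4-null tumors and 76.5 ± 5.43 CPM in control tumors. Between the tumor groups neither MDM4 (log2 change 0.27 ± 0.09, adjusted p = 0.134) nor TP63 (0.26 ± 0.32, adjusted p = 0.666) was called.

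In monolayer, cells labelled DDX4-null had lower RNA of 6 of the 9 p53 targets than control cells and higher RNA of 2. CDKN1A fell to 0.516, MDM2 to 0.501 and TP53I3 to 0.493 of the control level, GDF15, ZMAT3 and SESN1 fell by less, BTG2 rose 4.25-fold and SESN3, almost absent from control cells, rose far more. SESN2 did not pass the test. For those 8 genes the groups of 4 libraries did not overlap, as for 59.3% of all genes. All 4 epithelial markers, the 3 tested fibroblast markers and the 1 tested endothelial marker were also called higher in DDX4-null cells. Their part in these values was not tested. These 8 calls stood against 67.3% of all 13006 genes tested, of which 35.0% were called higher and 32.3% lower, so the number of members called was not far from that of genes at large. The median log2 change of the 9 was -0.46, beside 0.02 for all genes tested. In tumors 0 of the 9 passed the test, as against 2.09% of 12942 genes.

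**Figure D1:**
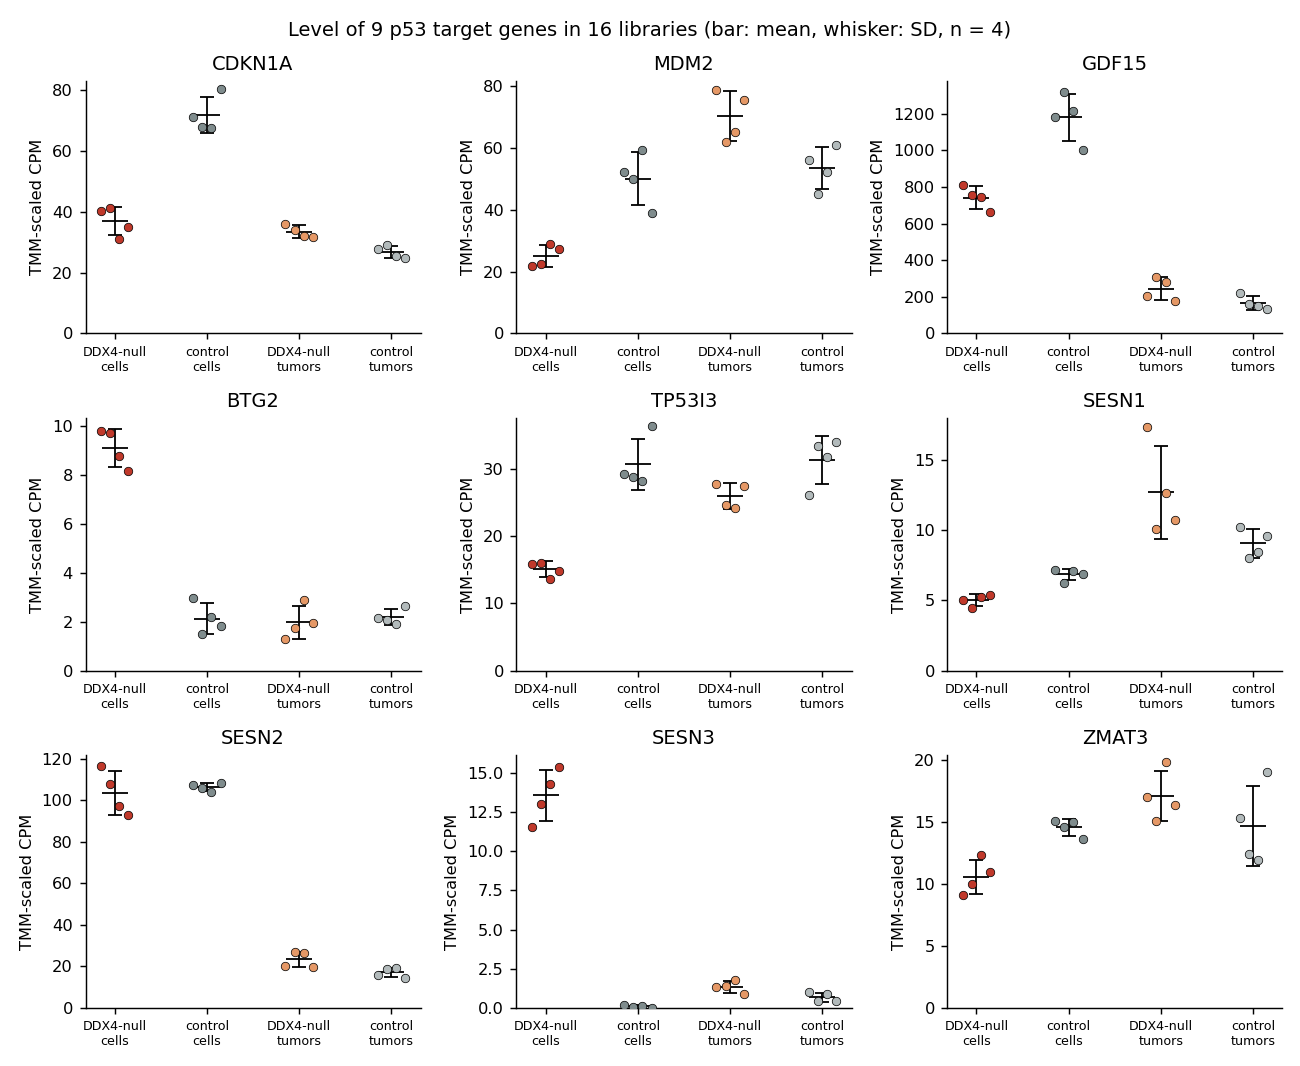
Level of each gene in TMM-scaled CPM (y axis, linear, starting at 0) in DDX4-null cells, control cells, DDX4-null tumors and control tumors (x axis), with points for libraries, a bar for the mean and whiskers for the SD (n = 4). CDKN1A, MDM2 and TP53I3 sit lower in all 4 DDX4-null cell libraries than in any control cell library, and BTG2 and SESN3 sit higher.

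CDKN1A encodes p21, the inhibitor of cyclin-dependent kinases that carries out the p53 cell cycle arrest. Its level in TMM-scaled CPM was 40.2, 41.3, 31.1 and 35.0 in DDX4-null cell libraries 1 to 4, against 71.0, 67.6, 67.5 and 80.1 in control cell libraries 1 to 4. Every DDX4-null cell library lay below every control cell library. The log2 change was -0.96 ± 0.11 (SE, adjusted p = 2.24e-07), with group means of 36.9 ± 4.74 CPM in DDX4-null and 71.6 ± 5.91 CPM in control cells. In tumors the order turned round, with 36.0, 34.0, 31.9 and 31.7 CPM in DDX4-null tumors 1 to 4 and 27.6, 29.1, 25.4 and 24.9 CPM in control tumors 1 to 4. The tumor groups did not overlap either, but the log2 change of 0.32 ± 0.09 did not pass the threshold (adjusted p = 0.0893).

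MDM2 is the ubiquitin ligase that marks p53 for degradation and is itself induced by p53, closing a feedback loop. MDM2 had 21.8, 22.4, 29 and 27.4 CPM in DDX4-null cells and 52.2, 49.96, 59.5 and 39.1 CPM in control cells, without overlap. The log2 change was -0.997 ± 0.13 (adjusted p = 1.47e-06), and control cell library 4 was the lowest of its group. Tumors again ran the other way, with 78.9, 61.9, 65.2 and 75.6 CPM in DDX4-null and 56.2, 45, 52.3 and 60.9 CPM in control tumors. The lowest DDX4-null tumor lay just above the highest control tumor, and the log2 change was 0.39 ± 0.11 (adjusted p = 0.0992). MDM2 overlaps the carboxypeptidase M gene on the opposite strand over 133 bases of exon, and the counting strand is not stated; that gene had 2331 counts over all libraries.

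MDM2 has a second promoter inside the gene, known as P2, where p53 binds to drive the feedback loop. The 250 bases before that RefSeq start (GRCh38.p14, chr12:68808767-68809016, plus strand) are shown because they held a pair of matches to the p53 response element, in capitals:
MDM2 P2: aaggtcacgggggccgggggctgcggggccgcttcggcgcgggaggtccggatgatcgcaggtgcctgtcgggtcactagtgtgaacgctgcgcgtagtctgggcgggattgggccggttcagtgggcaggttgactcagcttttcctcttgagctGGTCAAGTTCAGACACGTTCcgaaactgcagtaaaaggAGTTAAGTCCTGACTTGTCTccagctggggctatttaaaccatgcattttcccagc
The match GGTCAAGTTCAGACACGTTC, 94 to 75 bases before the start, had 2 mismatches to the 20-base consensus, and AGTTAAGTCCTGACTTGTCT, 56 to 37 bases before it, had 3. Among 35114 RefSeq promoter windows of the same length, 0.561% held a p53 element with at most 2 mismatches and 4.36% one with at most 3. Of 15 windows for the 9 genes, 3 held such a match, a pair of overlapping P2 windows of MDM2 and 1 window of SESN1. A match describes letters only, and the element reads the same on both strands.

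TP53I3, also called PIG3, encodes an oxidoreductase linked to oxidative stress in p53-driven apoptosis. TP53I3 stood at 15.9, 16, 13.6 and 14.9 CPM in DDX4-null cells and 29.3, 28.7, 28.2 and 36.3 CPM in control cells. The groups were apart, and control cell library 4 stood above the other 3 of its group. The log2 change was -1.02 ± 0.11 (adjusted p = 1.92e-07), the largest fall among the members in cells. In DDX4-null tumors it had 27.8, 24.5, 24.1 and 27.4 CPM, and in control tumors 26.1, 33.3, 31.8 and 33.9 CPM. Those ranges overlapped through control tumor 1, and TP53I3 was 1 of 2 members with a negative log2 change in tumors (-0.27 ± 0.10, adjusted p = 0.162). Its exons overlap FAM228B on the opposite strand over 80 bases, with 1955 counts for FAM228B over all libraries.

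GDF15 encodes a secreted stress hormone of the TGF-beta superfamily that acts on appetite through a brainstem receptor. Its level in DDX4-null cells was 809, 758, 743 and 661 CPM, against 1181, 1320, 1215 and 1005 CPM in control cells. All 4 DDX4-null libraries were below all 4 controls (log2 change -0.67 ± 0.11, adjusted p = 2.05e-05). Tumors held far less, with 206, 309, 283 and 177 CPM in DDX4-null and 219.9, 159, 150.0 and 135 CPM in control tumors. DDX4-null tumors 2 and 3 were the highest, and the ranges overlapped through control tumor 1 (log2 change 0.55 ± 0.19, adjusted p = 0.139).

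ZMAT3 encodes an RNA-binding zinc finger protein that affects splicing and RNA stability downstream of p53. ZMAT3 had 9.07, 9.998, 12.3 and 10.9 CPM in DDX4-null cells and 15.1, 14.5, 15 and 13.6 CPM in control cells. The groups did not overlap, and the log2 change was -0.46 ± 0.12 (adjusted p = 0.00255). The 50 tested genes nearest to ZMAT3 on chromosome 3 had a median log2 change of -0.35 in cells, which left -0.11 for ZMAT3 relative to them. For the other 7 members called in cells, the change relative to the 50 nearest genes kept its sign, at -0.50 to -1.29 for those that fell. In tumors ZMAT3 had 17.0, 15.1, 19.8 and 16.3 CPM in DDX4-null and 15.3, 12.4, 11.9 and 19.0 CPM in control libraries, with wide overlap (log2 change 0.22 ± 0.16, adjusted p = 0.441). The log2 change was 0.12 without control tumor 3 and 0.37 without control tumor 4.

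The sestrins SESN1, SESN2 and SESN3 are stress proteins that bind the GATOR2 complex and hold back the growth kinase complex mTORC1, with SESN2 acting as a leucine sensor. Their 3 RNAs moved apart in cells, where SESN1 fell, SESN2 did not pass the test and SESN3 rose. SESN1 had 5.01, 4.47, 5.26 and 5.42 CPM in DDX4-null cells and 7.15, 6.24, 7.11 and 6.92 CPM in control cells, with no overlap (log2 change -0.44 ± 0.14, adjusted p = 0.00728). In tumors it had 17.4, 10.1, 12.6 and 10.7 CPM in DDX4-null and 10.2, 8.0, 8.49 and 9.62 CPM in control libraries. DDX4-null tumor 1, the library with the highest fibroblast marker sum, was the highest of all, and DDX4-null tumor 2 lay inside the control range. The log2 change in tumors was 0.48 ± 0.18 (adjusted p = 0.163) and 0.30 without that library (adjusted p = 0.297).

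The RefSeq window of SESN1 that held a p53 element is shown with the match in capitals (GRCh38.p14, chr6:109008989-109009238, minus strand):
SESN1: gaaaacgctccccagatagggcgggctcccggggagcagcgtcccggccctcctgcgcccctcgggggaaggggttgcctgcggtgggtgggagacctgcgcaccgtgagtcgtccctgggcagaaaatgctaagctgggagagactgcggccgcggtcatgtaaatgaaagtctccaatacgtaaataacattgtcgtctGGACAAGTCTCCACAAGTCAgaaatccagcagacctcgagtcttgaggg
The match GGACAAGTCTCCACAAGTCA lay 49 to 30 bases before the start, with 3 mismatches to the consensus.

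In monolayer the genotypes overlapped for SESN2, with 116, 108, 97.4 and 92.7 CPM in DDX4-null and 107, 106, 104 and 108 CPM in control cells. The DDX4-null libraries spread around the tight control values, and the log2 change of -0.04 ± 0.10 did not pass the test (adjusted p = 0.748). Tumors held far less SESN2, with 20.3, 26.8, 26.1 and 19.7 CPM in DDX4-null and 15.8, 18.5, 19.3 and 14.5 CPM in control tumors. DDX4-null tumors 2 and 3 were the highest, as for GDF15, and the lowest DDX4-null tumor was just above the highest control (log2 change 0.45 ± 0.13, adjusted p = 0.105). Among control tumors SESN2 was highest in tumor 3, but GDF15 in tumor 1.

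SESN3 showed the widest difference of the 9 genes. It had 217, 222, 234 and 329 counts in DDX4-null cell libraries 1 to 4, against 3, 1, 2 and 0 in control cell libraries 1 to 4. In CPM these were 11.6, 13.1, 14.3 and 15.4 in DDX4-null and 0.199, 0.0710, 0.112 and 0 in control cells. The summed 1002 counts in DDX4-null against 6 in control cells gave a 142-fold ratio after scaling for depth (exact 95% interval 65.0 to 388, counting error only), and the fitted log2 change was 7.04 ± 0.29 (adjusted p = 9.82e-14). In tumors the level was 1.30, 1.41, 1.78 and 0.876 CPM in DDX4-null and 0.975, 0.412, 0.886 and 0.453 CPM in control libraries. DDX4-null tumor 4 lay within the control range, and 86 counts in DDX4-null against 54 in control tumors gave a ratio of 1.97 (1.39 to 2.82, counting error only; log2 change 0.97 ± 0.35, adjusted p = 0.148).

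The rise of SESN3 in cells was not shared by the genes beside it on chromosome 11. Of the 5 tested genes on each side, 0 were called higher and 6 lower, namely FUT4 (log2 change -0.69), ENDOD1 (-0.33), FAM76B (-0.32), CEP57 (-0.27), MTMR2 (-0.39) and CCDC82 (-0.43). Relative to its 50 nearest tested genes, SESN3 changed by 7.40 on the log2 scale.

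**Figure D2:**
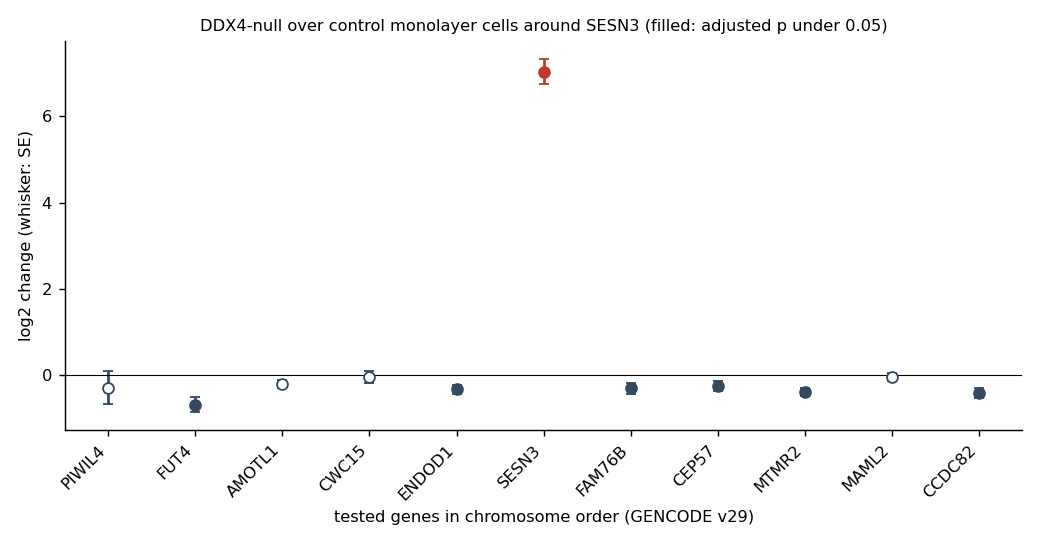
Log2 change of SESN3 and of the 5 tested genes on each side of it, DDX4-null over control monolayer cells (y axis), in chromosome order (x axis, evenly spaced); whiskers are SE and filled points had an adjusted p under 0.05. SESN3 stands at 7.04 while its neighbours lie between -0.69 and -0.05.

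The promoter windows of the members that rose, SESN3 and BTG2, are shown because they differ in base composition and neither held a p53 element with up to 3 mismatches (GRCh38.p14; SESN3 chr11:95232476-95232725, minus strand; BTG2 chr1:203305269-203305518, plus strand). They are in lower case throughout, since the searched FOXO, CARE (the element bound by ATF4 dimers) and TATA motifs had no match there either:
SESN3: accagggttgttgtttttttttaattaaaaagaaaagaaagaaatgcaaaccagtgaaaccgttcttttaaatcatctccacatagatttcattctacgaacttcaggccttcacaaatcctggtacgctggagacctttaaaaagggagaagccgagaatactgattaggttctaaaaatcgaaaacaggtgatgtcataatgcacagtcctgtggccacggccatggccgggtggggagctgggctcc
BTG2: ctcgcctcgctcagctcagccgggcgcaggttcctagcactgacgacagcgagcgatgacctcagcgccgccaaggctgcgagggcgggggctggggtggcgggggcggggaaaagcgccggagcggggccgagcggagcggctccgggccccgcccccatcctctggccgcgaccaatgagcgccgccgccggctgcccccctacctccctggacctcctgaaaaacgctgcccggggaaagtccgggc
The SESN3 window was 42.8% G or C with 7 CpG dinucleotides, and the BTG2 window 74.8% with 30, beside medians of 58.0% and 11 over the 35114 windows. The BTG2 window also held matches to the GC box and CCAAT motifs, which were not put in capitals. The absence of a match says only that these letters were not in these windows.

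BTG2 is an antiproliferative protein that recruits the CCR4-NOT deadenylase to messenger RNA. It had 9.76, 9.70, 8.74 and 8.13 CPM in DDX4-null cells, against 2.98, 1.49, 2.18 and 1.81 CPM in control cells. The lowest DDX4-null library was above the highest control by a wide margin, with 665 counts in DDX4-null against 133 in control cells (ratio 4.25, 95% interval 3.53 to 5.16, counting error only). The log2 change was 2.09 ± 0.18 (adjusted p = 4.53e-09). In tumors it had 1.30, 1.74, 2.87 and 1.94 CPM in DDX4-null and 2.16, 2.06, 1.88 and 2.62 CPM in control libraries, with the control range inside that of DDX4-null tumors (log2 change -0.13 ± 0.26, adjusted p = 0.792).

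**Figure D3:**
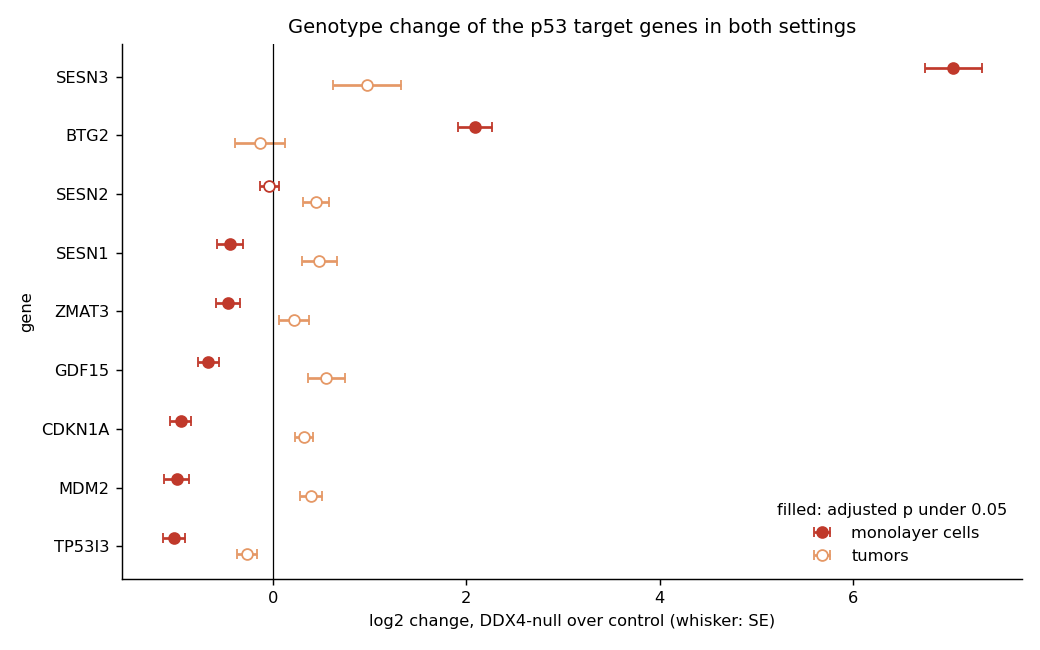
Log2 change of the 9 genes (y axis), DDX4-null over control (x axis), in monolayer cells (red) and tumors (orange), with SE whiskers; filled points had an adjusted p under 0.05. In cells 8 points are filled, from -1.02 for TP53I3 to 7.04 for SESN3, and in tumors 0 are filled, with 7 of 9 above 0.

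In DDX4-null against control tumors, 7 of the 9 genes had a positive log2 change and 2, TP53I3 and BTG2, a negative one. The edgeR quasi-likelihood test called 0 at an adjusted p under 0.05, while 7 had an unadjusted p under 0.05, 6 of them higher, beside 21.3% of all genes tested, 11.3% higher. The groups did not overlap for 3 members (CDKN1A, MDM2 and SESN2), beside 12.4% of all genes. Of all genes, edgeR called 127 higher and 143 lower, or 97 higher and 168 lower with library totals. The median log2 change was 0.39 for the members and -0.00061 for all genes. DESeq2 called 4 members, CDKN1A (adjusted p = 0.0337), MDM2 (0.0348), GDF15 (0.0494) and SESN2 (0.0399), beside 6.80% of the genes it tested, and the model of all 16 libraries called GDF15 (0.0477) and SESN2 (0.0269), beside 5.94%. Over the alternatives other than the 2-fold threshold, the adjusted p ranged from 0.0337 to 0.266 for CDKN1A, 0.0348 to 0.266 for MDM2, 0.0477 to 0.335 for GDF15 and 0.0269 to 0.199 for SESN2. No marker of fibroblasts, endothelium, leukocytes or skeletal muscle was called between the tumor groups, and their part in these values was not tested.

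The genotype effect differed between tumors and cells for all 9 genes in the 16-library model, which tested the tumor log2 change minus the cell log2 change. The difference was positive for 7 and negative for 2, beside 52.8% of 13603 genes called, 26.0% positive and 26.8% negative (3532 and 3649 genes, or 2721 and 4404 with library totals, which moved the median of all genes to -0.16 against -0.02 here). It was 1.28 ± 0.14 for CDKN1A (adjusted p = 3.93e-07), 1.39 ± 0.18 for MDM2 (adjusted p = 3.25e-06) and 1.22 ± 0.23 for GDF15 (adjusted p = 0.000157). These 3, with SESN1, SESN2 and ZMAT3, had a negative value in cells and a positive one in tumors. The difference was 0.92 ± 0.23 for SESN1, 0.68 ± 0.20 for ZMAT3 and 0.75 ± 0.15 for TP53I3, whose value was below 0 in both settings. SESN2 had the smallest difference, 0.49 ± 0.16 (adjusted p = 0.0143), which did not pass the test when library totals were used without TMM scaling (0.35, adjusted p = 0.0979). The negative differences were -2.22 ± 0.32 for BTG2 and -6.07 ± 0.54 for SESN3, whose changes in cells were far above those in tumors. All 4 epithelial markers also had a called negative difference, as had 1 of 7 fibroblast and 1 of 4 tested endothelial markers. For 1 fibroblast marker the called difference was positive, and no tested leukocyte or skeletal muscle marker was called. The part of cell makeup in these differences was not tested.

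Between the growth settings, SESN2 and GDF15 were lower in tumors in both genotypes. In the DDX4-null comparison of tumors with monolayer cells, 8 of 9 genes were called (4 higher, 4 lower), beside 69.8% of all genes (34.6% higher, 35.3% lower). SESN2 changed by -2.14 ± 0.13 on the log2 scale in DDX4-null tumors against DDX4-null cells (adjusted p = 9.48e-09) and by -2.63 ± 0.10 in control tumors against control cells (adjusted p = 1.02e-12). GDF15 changed by -1.59 ± 0.16 in the DDX4-null and -2.82 ± 0.14 in the control comparison, with adjusted p = 1.54e-06 and 2.73e-11. SESN3 and BTG2, raised in DDX4-null cells, were lower in DDX4-null tumors than in DDX4-null cells (log2 change -3.30 ± 0.21 and -2.17 ± 0.22), and MDM2, SESN1, TP53I3 and ZMAT3 were higher (1.5 ± 0.12, 1.34 ± 0.19, 0.80 ± 0.11 and 0.71 ± 0.14). CDKN1A did not pass in that comparison (-0.13 ± 0.11, adjusted p = 0.322).

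In control tumors against control cells, 4 of the 8 tested members were called, beside 64.9% of all genes. Of all genes, 33.9% were higher and 31.0% lower (4354 and 3986 genes), or 5569 and 2870 with library totals, which set the median of all genes at 0.19 against 0.02 here. CDKN1A fell by 1.42 on the log2 scale (-1.42 ± 0.10, adjusted p = 1.19e-09), GDF15 and SESN2 fell, and SESN1 rose (0.41 ± 0.13, adjusted p = 0.0116). The values of MDM2 (0.10 ± 0.12), BTG2 (0.04 ± 0.23), TP53I3 (0.04 ± 0.11) and ZMAT3 (0.01 ± 0.14) were near 0 and did not pass. SESN3 did not pass the low-count filter there, with 54 counts in control tumors against 6 in control cells, a ratio of 7.19 (95% interval 3.10 to 20.4, counting error only). Markers of other cells moved with the same comparisons. The 5 skeletal muscle markers summed to 5.46 to 283 CPM in DDX4-null and 78.7 to 281 CPM in control tumors, against 0 to 0.176 CPM in DDX4-null cells, where MYH1, CKM and TNNT3 were at 0, and 0.0662 to 0.213 CPM in control cells, where MYH1, MYH2 and TNNT3 were at 0. The 5 leukocyte markers summed to 9.84 to 43 CPM in DDX4-null and 10.9 to 16.6 CPM in control tumors, against 0.765 to 1.04 CPM in DDX4-null and 0.841 to 2.34 CPM in control cells. The 4 endothelial markers summed to 25.3 to 28.8 CPM in DDX4-null and 14.2 to 15.8 CPM in control cells. Their sums were 21.0 to 39.7 CPM in DDX4-null and 17.7 to 25.5 CPM in control tumors, so the DDX4-null ranges overlapped. In control tumors against control cells, all 7 fibroblast, 5 skeletal muscle, 4 tested endothelial and 3 tested leukocyte markers were called higher. In the DDX4-null comparison, 6 of 7 fibroblast, 1 of 1 tested muscle, 1 of 2 tested endothelial and 3 of 3 tested leukocyte markers were. The part of these cells in the differences was not tested.

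Placed in order of level, CDKN1A was highest in control cells, then DDX4-null cells and DDX4-null tumors, which overlapped, and control tumors. GDF15 ran from control cells through DDX4-null cells to both tumor groups, which overlapped, and SESN2 overlapped between the cell groups and was lower in DDX4-null and then control tumors. MDM2 was highest in DDX4-null tumors, overlapped between control tumors and control cells and was lowest in DDX4-null cells. ZMAT3 had its highest mean in DDX4-null tumors, and both tumor groups overlapped with each other and with control cells. Its mean was lowest in DDX4-null cells, which overlapped with control tumors and lay below control cells and DDX4-null tumors. TP53I3 overlapped in control tumors and control cells, with DDX4-null tumors next, which overlapped with control tumors and lay below control cells, and DDX4-null cells lowest, while SESN1 overlapped between the tumor groups, with control cells and then DDX4-null cells below. BTG2 stood apart only in DDX4-null cells, while SESN3 was highest there, overlapped between the tumor groups and was lowest in control cells.

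Per kilobase of exon, GDF15 was the most abundant of the 9 in every group, with mean levels of 356 CPM per kilobase in DDX4-null cells, 566 in control cells, 117 in DDX4-null tumors and 79.5 in control tumors. SESN2 was next in cells, at 30.0 CPM per kilobase in DDX4-null and 30.8 in control cells. In tumors TP53I3 and CDKN1A were next, at 11.2 and 11 CPM per kilobase in DDX4-null and 13.5 and 8.77 in control tumors. SESN3 had 1.28 CPM per kilobase in DDX4-null cells and 0.00902 in control cells, the lowest level of any member.

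The genes around the 9 targets were described by lists, whose counts stand beside 67.3% of all genes called in cells (35.0% higher, 32.3% lower) and 2.09% in tumors. Of 16 genes for p53 and its regulators, 15 were tested in cells, with 6 higher and 4 lower in DDX4-null cells (median log2 change -0.11), a share of genes called near that of all genes, and 0 called in tumors by edgeR or DESeq2, with 2 at an unadjusted p under 0.05 beside 21.3% of all genes. CDKN2A, which encodes p14ARF, an inhibitor of MDM2, and p16, rose to 248 ± 36.0 CPM in DDX4-null against 122 ± 4.79 CPM in control cells (log2 change 1.02 ± 0.10). Of 40 other established p53 targets, 36 were tested in cells, with 13 higher and 13 lower, and a median of -0.04, or 13 higher and 11 lower and a median of 0.03 with library totals. Their share called was close to the 67.3% of all genes. By role, 5 rose and 4 fell of 11 tested apoptosis genes, 2 rose and 1 fell of 5 cell cycle genes, 2 rose and 1 fell of 4 repair genes, and 4 rose and 7 fell of 16 metabolic and other genes.

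Among these other targets, TRIM22, an interferon-induced ubiquitin ligase, had 0.517 ± 0.176 CPM in DDX4-null and 4.58 ± 0.552 CPM in control cells (log2 change -3.17 ± 0.23). PERP, a junction protein linked to p53-driven apoptosis, rose to 166 ± 16.2 CPM in DDX4-null against 85.7 ± 2.87 CPM in control cells (log2 change 0.96 ± 0.09). In tumors TP53INP1, which promotes autophagy and apoptosis, was the 1 gene of the 40 called, with 37.9 ± 6.12 CPM in DDX4-null and 24.1 ± 3.91 CPM in control tumors (log2 change 0.66 ± 0.14, adjusted p = 0.0373), and 0 were called with library totals. Of the 36 tested there, 8 had an unadjusted p under 0.05, a share close to the 21.3% of all genes.

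The 12 genes of the ATF4 stress response, the pathway that also drives GDF15 and SESN2, gave 2 higher and 7 lower in DDX4-null cells (median log2 change -0.33), beside 35.0% of all genes higher and 32.3% lower, or 3 higher and 5 lower with library totals. ASNS, asparagine synthetase, fell to 309.8 ± 27.7 CPM in DDX4-null against 853 ± 127 CPM in control cells (log2 change -1.46 ± 0.11), and DDIT4, an mTORC1 inhibitor, fell to 46.2 ± 4.85 CPM in DDX4-null against 122 ± 4.73 CPM in control cells (-1.41 ± 0.10). VLDLR, a lipoprotein receptor, rose (log2 change 2.74 ± 0.15). In tumors DDIT4 rose to 81.2 ± 10.6 CPM in DDX4-null against 40.9 ± 12.8 CPM in control tumors (log2 change 0.99 ± 0.19, adjusted p = 0.0272), and DDIT3, which encodes CHOP, rose by a log2 change of 0.42 ± 0.09 (adjusted p = 0.0359). The other 10 were not called there, and the list median was 0.24; with library totals 1 of the 12 was called and with DESeq2 3.

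The mean log2 CPM of the ATF4 list was 5.72, 5.84, 5.90 and 5.71 in DDX4-null tumors 1 to 4, against 5.50, 5.49, 5.52 and 5.33 in control tumors 1 to 4. DDX4-null tumors 2 and 3 were the highest, as they were for GDF15 and SESN2. Among control tumors the list and SESN2 were highest in tumor 3, but GDF15 was highest in tumor 1. A link between the list and these genes was not tested. In tumors against cells, 2 rose and 9 fell in the DDX4-null comparison and 1 rose and 11 fell in the control comparison, with median log2 changes of -1.60 and -2.13. Of all genes, 34.6% rose and 35.3% fell in the DDX4-null comparison, and 33.9% rose and 31.0% fell in the control comparison. Of the 12 genes, 7 had a positive and 1 a negative difference between the tumor and cell genotype effects, beside 26.0% and 26.8% of all genes (6 and 1 with library totals).

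The FOXO list holds FOXO factors and genes they drive, as they do SESN1 and SESN3. Of 11 tested, 5 rose and 2 fell in DDX4-null cells (median log2 change 0.30), or 7 and 2 with library totals, beside 35.0% and 32.3% of all genes. FOXO1 rose to 17.4 ± 1.48 CPM in DDX4-null against 6.34 ± 1.13 CPM in control cells (log2 change 1.45 ± 0.14), and FOXO6 to 4.33 ± 0.652 CPM in DDX4-null against 0.239 ± 0.0494 CPM in control cells (4.13 ± 0.27). IRS2, an insulin receptor adaptor, rose in both settings, to 38.0 ± 5.16 CPM in DDX4-null against 6.85 ± 1.35 CPM in control cells (2.46 ± 0.14) and to 9.79 ± 1.24 CPM in DDX4-null against 5.30 ± 0.798 CPM in control tumors (0.88 ± 0.16, adjusted p = 0.0242). The transcriptional repressor BCL6 (0.75 ± 0.14, adjusted p = 0.0284) and the coactivator-binding CITED2 (0.69 ± 0.14, adjusted p = 0.0341) also rose in DDX4-null tumors, and the other 8 were not called; DESeq2 called 4 of the list.

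The next list of 13 genes pooled cyclins and kinases held by CDKN1A with PCNA and the related inhibitors CDKN1B and CDKN1C. It gave 11 higher and 0 lower in DDX4-null cells (median log2 change 0.67), beside 35.0% of all genes higher and 32.3% lower. With library totals 12 were higher and 0 lower. A tie to the level of CDKN1A was not tested. CCNA2 (cyclin A2, log2 change 1.55 ± 0.11) and CDK1 (1.01 ± 0.11) were among the genes that rose. CCND2, which encodes cyclin D2, had 7766 counts in DDX4-null and 3 in control cells, a ratio of 2202 after scaling (95% interval 753 to 10679, counting error only), and was the 1 gene of this list that edgeR called in tumors, with 140 counts in DDX4-null and 49 in control tumors (log2 change 1.83 ± 0.37, adjusted p = 0.0341). In tumors DESeq2 called 2 of the list higher and 1 lower, and edgeR with library totals 1 higher and 1 lower. Of the 13, 10 had a negative and 1 a positive difference between the tumor and cell genotype effects, beside 26.8% and 26.0% of all genes (11 and 0 with library totals).

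The 7 list genes called in tumors (TP53INP1, DDIT4, DDIT3, IRS2, BCL6, CITED2 and CCND2) each kept a positive log2 change when any 1 of the 8 tumor libraries was left out, but were called in only 2 to 4 of those 8 fits. Each lost its call without control tumor 2 and without control tumor 3, with edgeR adjusted p-values of up to 0.148 over the 8 fits.

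A further list held 12 genes for GATOR complexes and nutrient sensing, not all of them binding partners of sestrins. Of these, 2 rose and 5 fell in DDX4-null cells, beside 35.0% and 32.3% of all genes. In tumors 0 were called by edgeR or DESeq2 (1 at an unadjusted p under 0.05). With library totals 5 rose and 5 fell in cells. MIOS, a GATOR2 subunit, fell (log2 change -0.86 ± 0.11) and WDR24, another, rose (0.65 ± 0.12). Of 8 tested genes of the BTG and TOB family and the CCR4-NOT deadenylases, 2 rose and 3 fell in cells (2 and 2 with library totals) and 0 were called in tumors by edgeR (2 at an unadjusted p under 0.05, 1 called by DESeq2). BTG3 rose like BTG2, to 41.6 ± 3.77 CPM in DDX4-null against 7.54 ± 1.24 CPM in control cells (log2 change 2.46 ± 0.13), while BTG1 fell to 107 ± 8.39 CPM in DDX4-null against 182 ± 16.6 CPM in control cells (-0.77 ± 0.10).

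**Figure D4:**
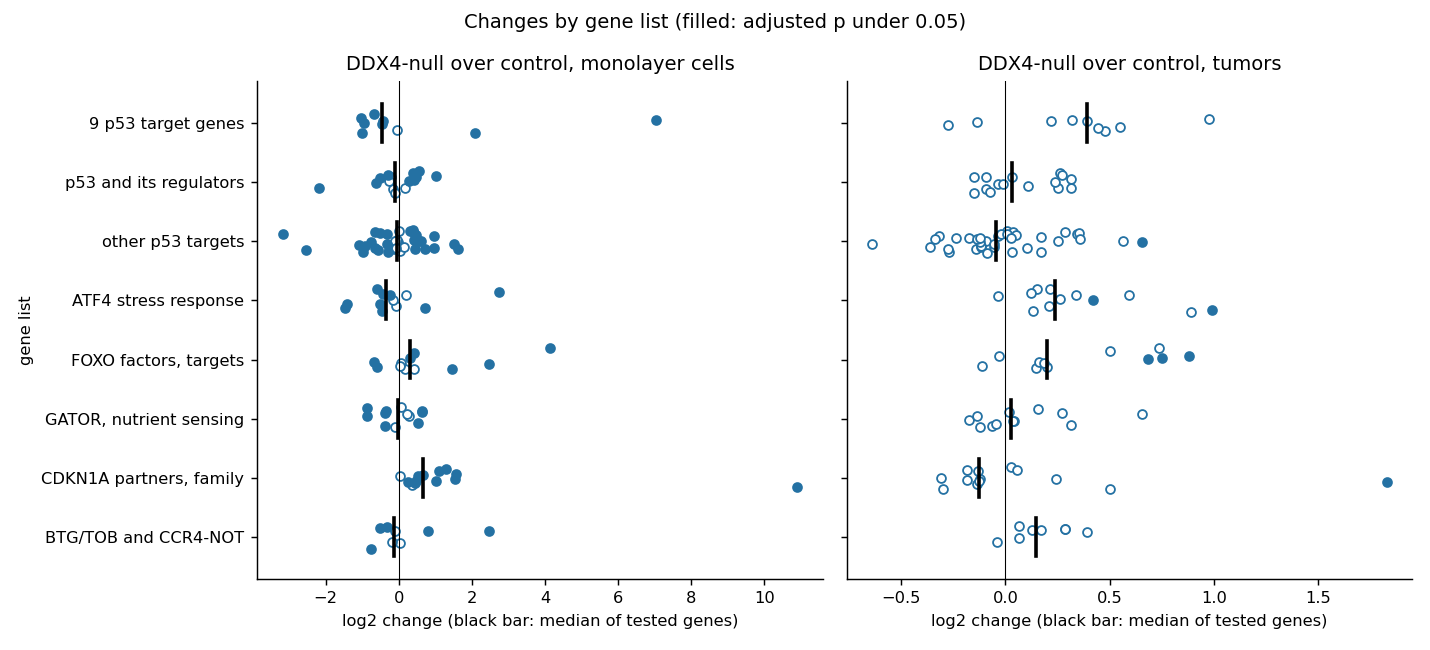
Log2 change of each tested gene in the 9 targets and the 7 related lists (y axis), DDX4-null over control, in monolayer cells (left) and tumors (right; the x axes differ in scale), with filled points for an adjusted p under 0.05 and a black bar at the list median. The median of the 9 targets lies at -0.46 in cells and 0.39 in tumors.

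Some genes followed the members closely over the 16 libraries, by Pearson's r of log2 CPM among 13043 genes, a description that includes the differences between groups. SESN2 was most like CHAC1 (r = 0.994) and CBS (0.991), and GDF15 most like BMF (0.988) and STC2 (0.987). CDKN1A was nearest to HERPUD1 (0.984) and NFKBIA (0.983), and MDM2 to UBQLN2 (0.975) and PURB (0.969). SESN3 was nearest to CCND2 and PIK3R1 (0.980 each), BTG2 to EIF4E3 (0.968) and CYFIP2 (0.963), and SESN1 to TRIB2 (0.984) and FUT11 (0.970). TP53I3 was nearest to NUDCD3 (0.979) and SNX12 (0.975), and ZMAT3 to SPOPL (0.960) and SLC35A3 (0.957).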

How the data were processed

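RNA-seq libraries of PC3 monolayer cells and xenograft tumors were analysed from a table of raw counts per gene deposited by the authors. DNase-treated total RNA went into stranded mRNA libraries, per the labels' protocols. Trimmomatic 0.39, STAR 2.7.10a and featureCounts 2.0.3 with GRCh37 are named in the submitters' processing notes; neither the counting strand nor a step against host reads is stated there. Of 20356 Ensembl IDs, 19446 were named by the gene table and 65 by GENCODE v29.

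The deposited counts were tested with edgeR 4.0.16 in R 4.3.3 (TMM scaling, filterByExpr, quasi-likelihood F test, Benjamini-Hochberg adjustment over all tested genes, threshold 0.05). Each comparison of a pair of groups was fitted on its 8 libraries, and the difference between genotype effects on all 16. SE is the log2 change divided by the square root of F. Levels are CPM scaled by TMM over the 16 libraries, given as mean ± SD (n = 4), and per kilobase of GENCODE v29 exon union. Ratios of summed counts carry exact 95% intervals for counting error only, since the 4 libraries of a group were pooled and their spread was left out. The reads carried no molecular identifiers, so copied reads could not be told apart. Promoter windows (250 bases before RefSeq starts, GRCh38.p14) were searched on both strands for the p53 response element (20 bases, up to 3 mismatches), the FOXO motif GTAAACA and TATAAA, and for CARE by name. The fit was checked on simulated counts with a small set of genes changed evenly up and down. Far more genes were called in every comparison but that of the tumor genotypes, and the check does not cover changes so widespread.

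The text names all 9 members, TP63, TP73 and MDM4, called list genes of smallest p (up to 3 a list and comparison), and the 2 genes most like each member. The members and lists were chosen with earlier results of these data known. TXNIP and PECAM1 of the lists were not analysed here, and values of some other list genes are not reported here. Alternatives were DESeq2 1.42.0, other scalings, filters, models and thresholds, and leaving out each library; genes were also set against their chromosome and nearest genes. Replicate pairs differed by more than sampling noise, and no library was dropped. Replicate numbers did not pair the samples.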

Additional observations from a re-analysis of the deposited data

Results flagged for a closer look

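In control monolayer cells, replicate 4 stood apart from the other 3 libraries for TP53I3, at 36.3 CPM. It was 1 of 36 gene and group combinations examined for a library far from its group, where chance flags about 1 in 20.

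The genotype effect differed between tumors and cells (tumor log2 change minus cell log2 change, edgeR interaction contrast over 16 libraries) for each of the 9 genes. The difference was 1.28 ± 0.14 (SE) for CDKN1A, 1.39 ± 0.18 for MDM2, 1.22 ± 0.23 for GDF15, 0.75 ± 0.15 for TP53I3, 0.92 ± 0.23 for SESN1, 0.49 ± 0.16 for SESN2 and 0.68 ± 0.20 for ZMAT3. It was -2.22 ± 0.32 for BTG2 and -6.07 ± 0.54 for SESN3. Adjusted p-values ran between 1.91e-08 for SESN3 and 0.0143 for SESN2. In 52.8% of all genes the effect differed too.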

How the results depend on the processing

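Against a 2-fold threshold, the members called were 2 in cells, 5 in DDX4-null tumors against cells and 3 for the difference between genotype effects, and genes called in all were 1945 in cells, 3 in tumors, 2563 in DDX4-null and 1562 in control tumors against cells, and 1631 for the difference. In tumors, DESeq2 called 4 members and 880 genes, the model of all 16 libraries 2 and 808 (GDF15 and SESN2), and the fit with a replicate block 2 and 425 (MDM2 and SESN2), against 0 and 270. Leaving out each library in turn gave 26 to 289 genes in tumors (control tumor 3 left out gave 26, control tumor 2 gave 47, control tumor 1 gave 134, and DDX4-null tumors 2 and 3 gave 129 each); the cause was not tested. The number of members called in those fits was 8 in cells, 0 in tumors, 8 and 4 in DDX4-null and control tumors against cells, and 9 for the difference.

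Among the refits, signs turned only for values that had not passed: SESN2 in cells with library totals (0.0345) and over left-out libraries (-0.11 to 0.0125), BTG2 in tumors (-0.37 to 0.0052) and, in control tumors against cells, MDM2 (-0.0085 to 0.18), BTG2 (-0.0924 to 0.24), TP53I3 (-0.0089 to 0.13) and ZMAT3 (-0.14 to 0.11, and -0.0055 with the replicate block). Same-numbered libraries did not deviate together (correlations -0.159 to 0.239 in cells, -0.0899 to 0.197 in tumors), and the block moved the count of calls by over 1.5 times only in tumors. Of 428 single-gene values under alternatives other than leaving out a library, 17 no longer passed the threshold and 8 newly passed it. With no filter on low counts, SESN3 in control tumors against cells had a log2 change of 2.74 (edgeR adjusted p = 0.00023). Low counts limit SESN3 in control cells (0 to 3 counts per library) and DDX4 and TP73 throughout.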
